A study of Homo sapiens with 6 samples.

Results

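The secreted Wnt ligands, their frizzled and LRP receptors, the Dickkopf and SFRP antagonists, and the AXIN, TCF/LEF, RNF43, ZNRF3, LGR4 and LGR5 genes were followed in Caki2 cells that lack PBRM1 and in Caki2 cells that re-express it. The members were chosen by symbol (every WNT, FZD, DKK1 to DKK4 and SFRP1 to SFRP5 symbol, plus the 12 genes of the other families named above), by a rule that uses no measured value, which gave 49 of the 25369 genes in the files. Caki2 is an established line of clear cell renal cell carcinoma (ccRCC) that lacks PBRM1 protein, a subunit of the PBAF chromatin remodeling complex. Poly(A) RNA was sequenced from 3 replicates (A, B and C) of cells carrying a doxycycline-inducible lentiviral vector without an insert (Caki2+Vector) and from 3 replicates of cells carrying the same vector with PBRM1 (Caki2+PBRM1). Both lines were selected with antibiotics after infection, and both were held in doxycycline at 2 µg/mL for no less than 72 h, so the controls share the drug, the vector and the selection. The number of separate infections behind each line is not given in the sources used here, so the p-values measure the spread between replicates of these lines, which may be smaller than the spread between infections.

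Wnt proteins are lipid-modified by PORCN, carried out of the cell by WLS, and bind a frizzled receptor together with LRP5 or LRP6. In the canonical branch this stalls the complex of AXIN, APC and GSK3 that marks beta-catenin for destruction, and beta-catenin then joins TCF/LEF factors on DNA. In the non-canonical branches, ligands such as WNT5A act through frizzled, ROR, RYK and PTK7 receptors on the cytoskeleton and cell polarity. Dickkopf proteins block LRP5 and LRP6, SFRP proteins bind Wnt ligands, and RNF43 and ZNRF3 remove frizzled from the surface unless R-spondins engage LGR receptors. Wnt signaling directs tubule formation in the developing kidney.

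Values are normalized counts, that is, the reads on a gene divided by a size factor of its library, which ranged from 0.834 to 1.191 over libraries of 7312955 to 10835355 reads on genes. PBRM1 itself had 195.0, 182.3 and 182.2 normalized counts in Caki2+Vector and 2431.7, 2520.7 and 2682.4 in Caki2+PBRM1, which is the direction the labels give. PBRM1 mRNA was thus also read in the empty-vector cells, which lack the protein. Of 10 markers of renal tubule and ccRCC, 9 had at least 10 normalized counts in every sample, and CA9, a common ccRCC marker, was low, with 1.9, 2.8 and 0.0 in Caki2+Vector and 15.2, 8.9 and 6.7 in Caki2+PBRM1 (limma adjusted p = 1.86e-04 in a fit without a filter on low counts). Their summed level was 30702 to 31513 in Caki2+Vector against 32511 to 33351 in Caki2+PBRM1. The summed level of 5 endothelial markers was at most 6 in any library, with CDH5 and TEK at 0 throughout. Of 5 leukocyte markers, PTPRC had 6, 4 and 4 reads in Caki2+Vector and 1, 1 and 0 in Caki2+PBRM1 (adjusted p = 0.00189 in limma without the filter) and CD3E had 0, while CD68 carried nearly all of a sum of 2002 to 2146 in Caki2+Vector against 1902 to 1939 in Caki2+PBRM1. Of 5 fibroblast markers, 2 had at least 10 normalized counts in every sample, with sums of 104 to 111 in Caki2+Vector against 102 to 128 in Caki2+PBRM1. The part of these shifts in the results on Wnt genes was not tested, and in bulk RNA fewer cells with a transcript cannot be told apart from less transcript per cell. Vector A stood apart from its replicates, since its chi-square per degree of freedom was 3.09 against Vector B and 2.84 against Vector C, where Vector B and C gave 1.34 and the pairs of Caki2+PBRM1 1.19 to 1.22.

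A total of 30 of the 49 members reached 10 normalized counts in 3 or more samples and were tested with limma on log2(normalized count + 1), with Benjamini-Hochberg adjustment over all 13303 genes tested. Of these 30, 10 rose and 5 fell with PBRM1 (adjusted p under 0.05), and 15 did not pass. Without any 1 of the Caki2+PBRM1 libraries 6 rose, and the number that fell was 3 without Vector C, PBRM1 A or PBRM1 B. DESeq2 on reads recovered from the values called 6 higher and 3 lower. It did not call FZD2, LRP6, WNT5B, WNT7B, WNT10B or WNT11. Among all genes tested 29.2% passed, 16.2% higher and 13.0% lower, in a comparison that moved many genes, against 50.0% of the members. The family and the lists below were chosen with earlier results of these data known. A share above 29.2% is therefore no independent finding about them. The groups did not overlap for 17 of the 30 members, against 41.7% of all genes tested. These 17 were the 15 that passed plus LGR4 and WNT3. Among all 3886 genes that passed, 3735 had no overlap. The median log2 fold change was 0.104 over the 30 members and -0.004 over all genes tested. WNT5B passed the filter only through the Caki2+PBRM1 libraries. The members that passed were mainly frizzled receptors (5 higher and 2 lower of 9 tested) and ligands (4 higher and 1 lower of 9 tested), with DKK1 higher and SFRP4 and LRP6 lower. No tested member of the receptor turnover enzymes, the LGR receptors, the AXIN proteins or the TCF/LEF factors passed the test, and of these 7 genes 0 had an unadjusted p under 0.05 in limma, edgeR or DESeq2.

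**Figure D1:**
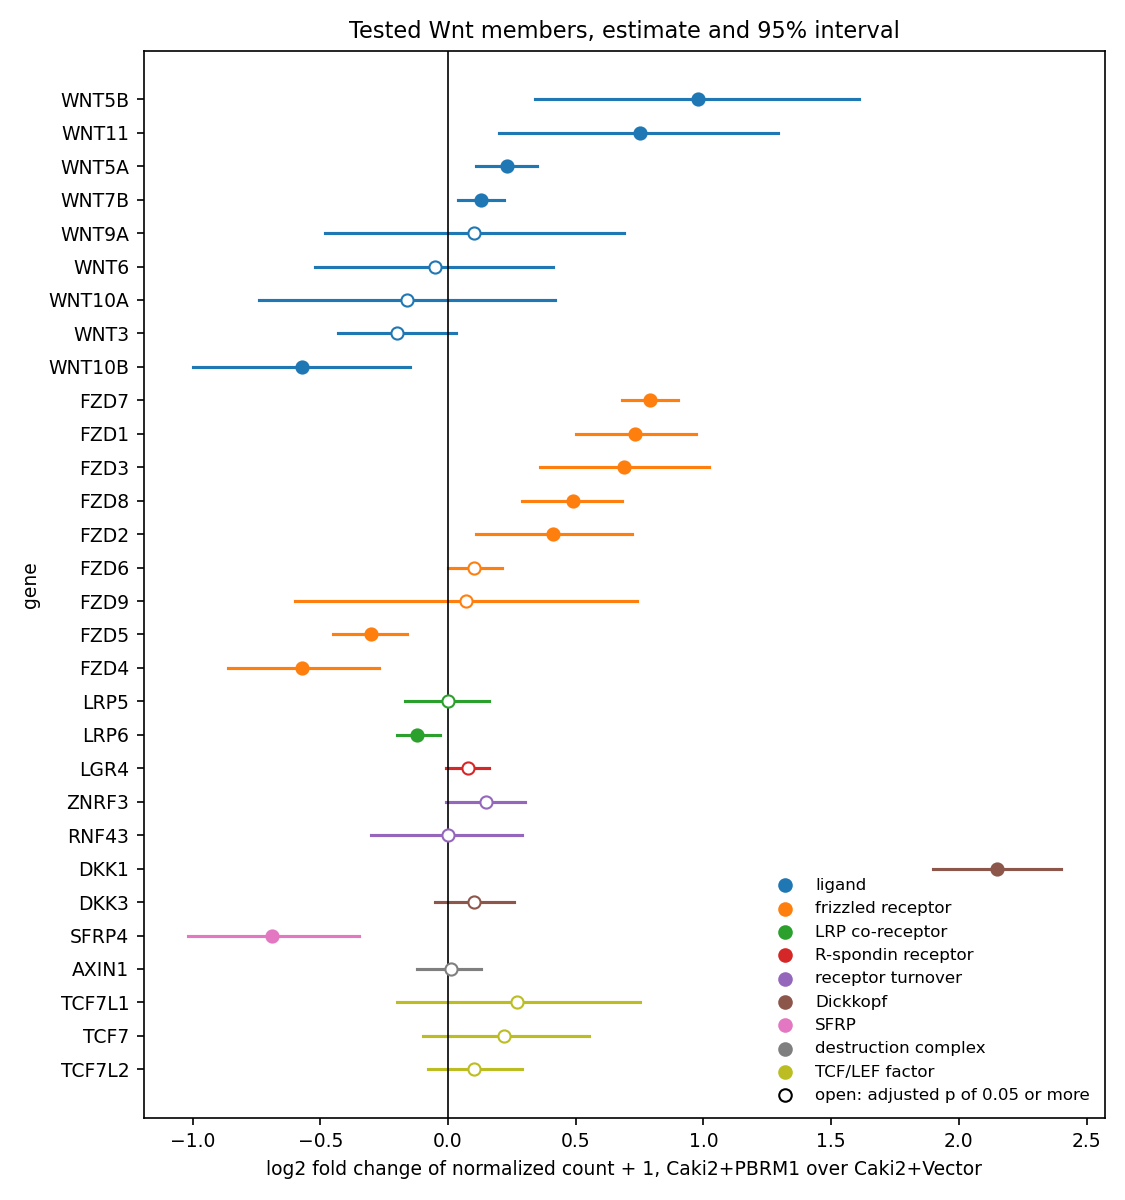
Log2 fold change of log2(normalized count + 1), Caki2+PBRM1 over Caki2+Vector, for the 30 tested members, with bars for the 95% confidence interval from limma, colours for the gene's role and open points for an adjusted p of 0.05 or more. DKK1 lies farthest to the right at 2.15, SFRP4 farthest to the left at -0.69, and the intervals of the 15 members that did not pass include 0.

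The promoters of DKK1, the member with the largest change, of FZD1 and FZD4, a receptor that rose and one that fell, and of SFRP4, the antagonist that fell, are shown so that the regulatory DNA can be read beside the counts. Each is the 250 bases before the start that RefSeq lists for the gene (table built on GRCh38.p14), found by exact match at 1 place on its GRCh37 chromosome, and is written 5′ to 3′ on the gene's strand. They are chr10:54073791-54074040 (plus strand) for DKK1, chr7:90893498-90893747 (plus) for FZD1, chr11:86666438-86666687 (minus) for FZD4 and chr7:37956420-37956669 (minus) for SFRP4. The SFRP4 window lies inside the position given for that gene below (chr7:37945534-38065297, from the GENCODE annotation). For SFRP4 the RefSeq start thus differs from the GENCODE start of the gene. Capitals mark matches on either strand to 4 spellings (first CTTTGAA, second CTTTGAT, then also CTTTGTA, and lastly CTTTGTT) of the core letters bound by TCF/LEF factors.
DKK1: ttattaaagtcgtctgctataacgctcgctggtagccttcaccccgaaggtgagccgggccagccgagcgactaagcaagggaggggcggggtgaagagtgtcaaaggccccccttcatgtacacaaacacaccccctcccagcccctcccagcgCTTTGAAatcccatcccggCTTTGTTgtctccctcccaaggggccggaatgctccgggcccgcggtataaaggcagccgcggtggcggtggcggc
FZD1: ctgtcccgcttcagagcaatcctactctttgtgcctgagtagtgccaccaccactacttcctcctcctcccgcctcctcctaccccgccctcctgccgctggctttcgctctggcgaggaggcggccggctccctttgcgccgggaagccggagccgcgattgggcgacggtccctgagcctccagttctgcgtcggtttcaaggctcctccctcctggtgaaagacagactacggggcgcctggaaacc
FZD4: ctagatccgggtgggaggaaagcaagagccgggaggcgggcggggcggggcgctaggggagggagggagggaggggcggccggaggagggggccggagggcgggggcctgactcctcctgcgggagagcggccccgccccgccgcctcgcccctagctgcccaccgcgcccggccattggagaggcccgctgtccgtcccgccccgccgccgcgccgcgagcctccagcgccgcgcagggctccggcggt
SFRP4: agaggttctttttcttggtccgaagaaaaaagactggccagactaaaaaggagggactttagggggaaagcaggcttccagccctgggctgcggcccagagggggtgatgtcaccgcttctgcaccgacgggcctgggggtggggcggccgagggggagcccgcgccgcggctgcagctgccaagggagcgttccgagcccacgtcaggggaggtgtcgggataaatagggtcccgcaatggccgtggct
DKK1 held 2 matches, CTTTGAA with its first base at -95 from the start and CTTTGTT at -76, and the other 3 windows held none. At the first start listed for each gene, 12.1% of 27305 genes held at least 1 match in a window of this length. Of the 49 members, 33 were in the table, and at the first listed start 1 of them, DKK1, held a match (3.0%). TCF7 and TCF7L2 held 1 match each at a second listed start. The median GC content of the members' windows at the first listed start was 70.8%, against 58.0% over all genes in the table, and it was 62.8% for DKK1, 65.2% for FZD1, 80.8% for FZD4 and 64.4% for SFRP4. A match is a run of letters and not evidence of binding, which was not measured.

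Among the ligands, 19 symbols were in the files and 9 passed the filter. The most abundant was WNT7B (chr22:46316246-46373042), a ligand of tubule epithelium in the developing kidney that acts through the canonical branch. It had 2058.1, 2380.8 and 2276.1 normalized counts in Caki2+Vector and 2496.7, 2431.0 and 2416.3 in Caki2+PBRM1. All 3 Caki2+PBRM1 libraries were above all 3 Caki2+Vector libraries, and Vector A was the lowest. The log2 fold change was 0.13 ± 0.05 (SE, n = 3 per group, adjusted p = 0.0294, limma). Without Vector A it was 0.07 (adjusted p = 0.111), and the call was also lost when any 1 of the Caki2+PBRM1 libraries was left out.

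WNT5A (chr3:55499743-55524567), the best known non-canonical ligand, had 512.2, 505.5 and 497.4 normalized counts in Caki2+Vector and 590.3, 600.0 and 586.7 in Caki2+PBRM1. The replicates lay close together and the groups did not overlap. WNT5A rose by 0.23 ± 0.06 on the log2 scale (SE, n = 3, limma adjusted p = 0.00291). Its close paralog WNT5B (chr12:1639057-1756378) was rare, with 7.6, 9.4 and 7.2 in Caki2+Vector and 21.7, 15.1 and 14.3 in Caki2+PBRM1. It rose by 0.98 ± 0.31 (limma adjusted p = 0.0182), but DESeq2 on the recovered reads did not call it (adjusted p = 0.118). Since WNT5B passed the filter only where it is high, it could not be tested without any 1 of the Caki2+PBRM1 libraries. WNT11 (chr11:75897369-75921780), a non-canonical ligand of the ureteric bud tip, had 18.0, 17.0 and 9.6 in Caki2+Vector and 26.0, 25.8 and 22.7 in Caki2+PBRM1. Vector C was the lowest of the 6. The log2 fold change was 0.75 ± 0.27 (adjusted p = 0.0336) and 0.48 (adjusted p = 0.178) without Vector C, and leaving out any 1 of the Caki2+PBRM1 libraries also ended the call.

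WNT10B (chr12:49359123-49365518), a canonical ligand, was the only ligand that fell. It had 41.7, 31.2 and 46.7 normalized counts in Caki2+Vector and 22.7, 25.8 and 30.2 in Caki2+PBRM1. The groups did not overlap, although Vector B and PBRM1 C lay close to each other. The log2 fold change was -0.57 ± 0.21 (SE, n = 3, limma adjusted p = 0.0367), and the call was lost without Vector A (-0.53), Vector C (-0.45), PBRM1 A (-0.48) or PBRM1 B (-0.57). WNT3, a canonical ligand, had 116.4, 117.2 and 130.6 against 110.5, 104.9 and 101.6, groups that did not overlap. Its difference of -0.20 (95% interval -0.43 to 0.03, adjusted p = 0.195) did not pass. The intervals of WNT6 (-0.52 to 0.41), WNT9A (-0.48 to 0.69) and WNT10A (-0.74 to 0.42) were wide at levels of 10.7 to 29.2 normalized counts per library.

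**Figure D2:**
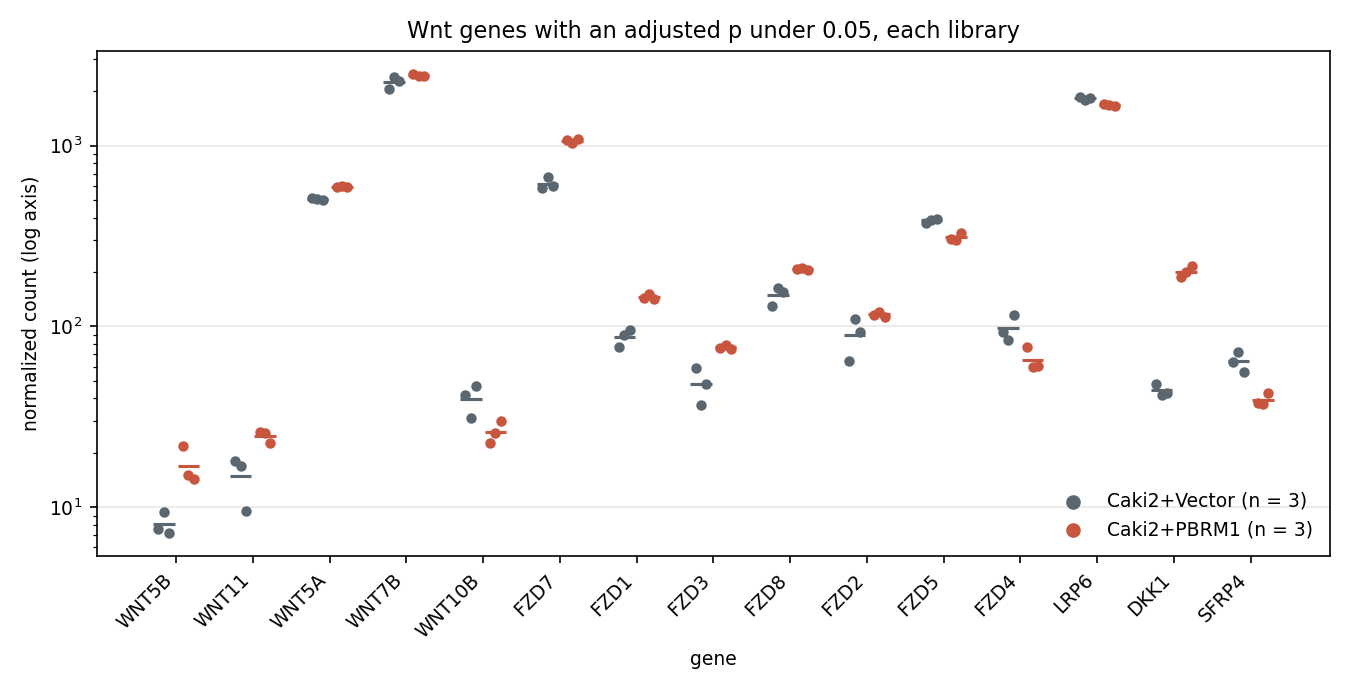
Normalized counts (log axis) of the 15 members that passed the test, 1 point for each of the 3 libraries of Caki2+Vector (grey) and the 3 of Caki2+PBRM1 (red), with a short line at each group mean. The groups do not overlap for any of the 15 genes, which also holds for 3735 of all 3886 genes that passed. DKK1 shows the widest gap, from 41.6 to 48.3 against 187.4 to 214.9.

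The other 10 ligands stayed under the filter. WNT2, WNT8A, WNT8B and WNT9B had 0 reads in all 6 libraries, and 0 reads allow up to 3 reads per library, or 2.52 to 3.60 normalized counts. WNT1, WNT3A and WNT7A had at most 1 read in a library. WNT4, which drives the first epithelial step of nephron formation, had 6, 2 and 2 reads in Caki2+Vector and 4, 3 and 7 in Caki2+PBRM1. WNT16 had 6, 5 and 6 against 4, 2 and 4 reads, and WNT2B 6, 9 and 10 against 5, 10 and 18. In a fit without the filter, which tested 19380 genes and called 19.5% of them, 12 of the 19 members under the filter had a read and were fitted, and 0 of them passed in limma or had an unadjusted p under 0.05.

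Levels of different genes were compared per kilobase of the main (Ensembl canonical) transcript. On this scale WNT7B made up 74.0% to 77.0% of the summed ligand level in Caki2+Vector against 75.6% to 76.5% in Caki2+PBRM1. WNT5A followed with 11.0% to 12.4% and 12.1% to 12.8%, and WNT3 with 4.55% to 5.19% and 3.82% to 4.03%. The summed ligand level per kilobase was 751 ± 41.1 (SD, n = 3) in Caki2+Vector and 816 ± 16.2 in Caki2+PBRM1, and the order of the 3 leading ligands was the same in both groups. Below them, WNT10B was the fourth by level in Caki2+Vector (17.7 ± 3.53), and its SD range overlapped that of its neighbour WNT6 (14.7 ± 1.72). In Caki2+PBRM1, the SD ranges of WNT6 (14.3 ± 2.83), WNT11 (13.1 ± 0.982) and WNT10B (11.7 ± 1.67) overlapped.

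**Figure D3:**
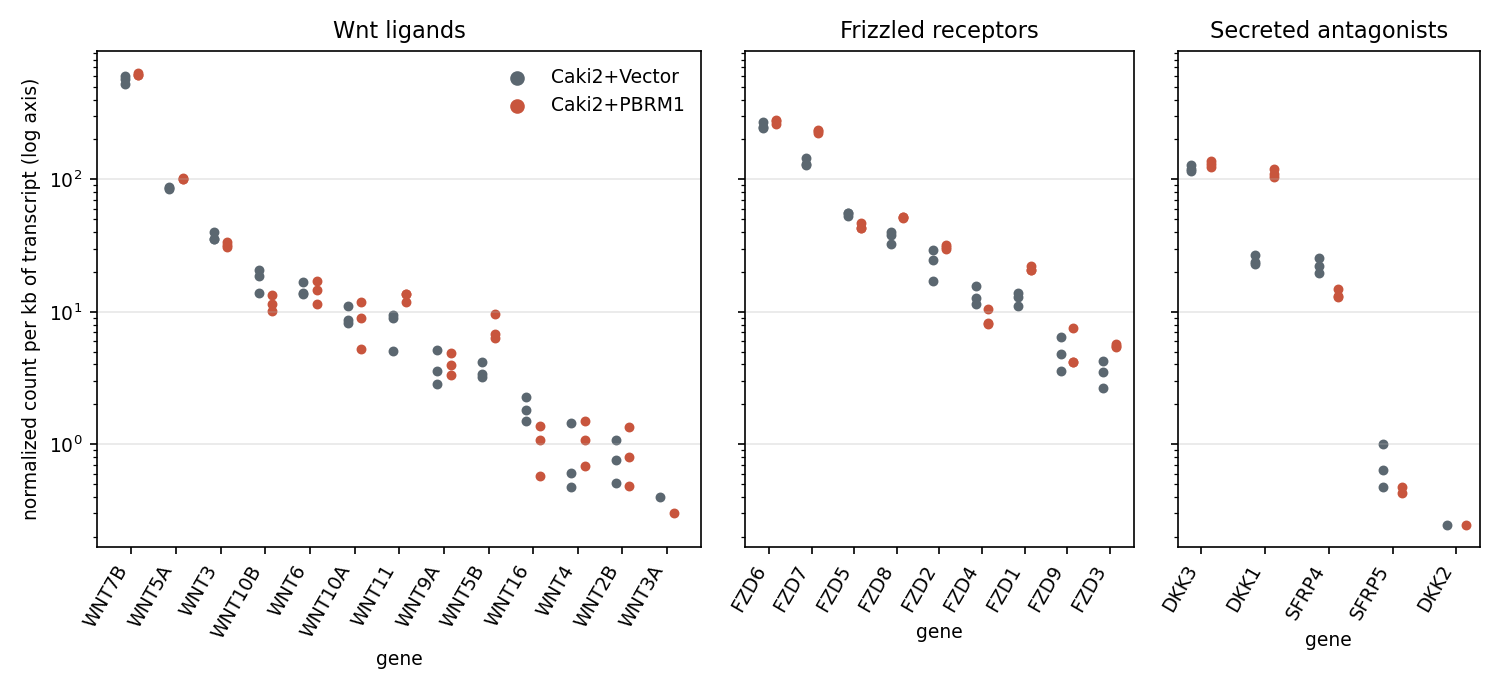
Normalized counts per kilobase of the main transcript (log axis) for ligands, frizzled receptors and secreted antagonists, with 1 point for each library, for genes read in both groups (values of 0 are not drawn). WNT7B leads the ligands at 567 and 620 on average, FZD6 the receptors at 255 and 274, and DKK3 the antagonists at 121 and 130, with DKK1 next to it in Caki2+PBRM1 at 111.

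Of the 10 frizzled receptors, the cell surface receptors of Wnt ligands, 9 passed the filter. Of these 9, 7 passed the test (77.8%, against 29.2% of all genes tested). FZD7 (chr2:202898578-202903164), a receptor used in canonical signaling and epithelial progenitors, had the smallest p among them. It had 584.1, 667.0 and 594.5 normalized counts in Caki2+Vector and 1069.1, 1027.5 and 1091.9 in Caki2+PBRM1. The groups were far apart relative to their spread. FZD7 rose 1.73-fold, from 615.2 ± 45.2 to 1062.8 ± 32.7 (SD, n = 3), with a log2 fold change of 0.79 ± 0.06 (SE, limma adjusted p = 3.23e-12).

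FZD1 (chr7:90893748-90900641), whose promoter is shown above, had 76.7, 89.8 and 95.9 normalized counts in Caki2+Vector and 143.0, 152.0 and 141.8 in Caki2+PBRM1, a 1.67-fold rise (log2 fold change 0.73 ± 0.12, limma adjusted p = 1.24e-05, n = 3). FZD3, a receptor of axon guidance and planar polarity, had 58.7, 36.8 and 47.9 against 75.8, 79.1 and 74.7 (0.69 ± 0.16, adjusted p = 0.00157, n = 3). For FZD8 (chr10:35927175-35931224), a canonical receptor, the values were 130.6, 162.5 and 154.6 against 209.1, 211.5 and 205.6 (0.49 ± 0.10, adjusted p = 2.54e-04, n = 3). In all 3 genes the Caki2+PBRM1 libraries lay above every Caki2+Vector library and were closer to each other than the Caki2+Vector libraries were. FZD2 (chr17:42634852-42638630), which forms a subfamily with FZD1 and FZD7, had 64.4, 110.5 and 93.5 against 115.9, 120.9 and 113.3. Vector A was far below its replicates, and the log2 fold change of 0.41 ± 0.15 (adjusted p = 0.0372) was 0.20 (adjusted p = 0.246) without it. The call for FZD2 was also lost without any 1 of the Caki2+PBRM1 libraries and in DESeq2 on the recovered reads (adjusted p = 0.129).

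FZD5 and FZD4 fell. FZD5 (chr2:208627322-208634630), a receptor of the canonical branch, had 372.0, 390.2 and 394.3 normalized counts in Caki2+Vector and 303.3, 302.2 and 330.7 in Caki2+PBRM1, a fall in all 3 libraries (log2 fold change -0.30 ± 0.07, limma adjusted p = 0.00139, n = 3). FZD4 (chr11:86656721-86666437), the Norrin receptor of blood vessels, had 93.7, 84.1 and 116.3 against 76.9, 59.6 and 60.4, and fell to 0.670 of its level (-0.57 ± 0.14, adjusted p = 0.00328, n = 3). A part of the FZD4 exons, 18.9% of their bases, overlaps PRSS23 on the other strand, and PRSS23 also fell, from 1279.9, 1207.4 and 1192.6 to 729.0, 736.8 and 726.0 (-0.75 ± 0.05, adjusted p = 6.87e-13, n = 3). Whether the counting used strand is not given in the sources used here, so reads of the shared bases cannot be assigned to either gene.

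FZD6, the most abundant frizzled and one known to dampen canonical signaling, had 1010.1, 914.5 and 924.1 normalized counts in Caki2+Vector and 1052.8, 977.7 and 1030.7 in Caki2+PBRM1. The groups overlapped and the difference of 0.10 (95% interval -0.00 to 0.21, limma adjusted p = 0.134, n = 3) did not pass, but without Vector A, its highest control, it was 0.15 (adjusted p = 0.0105). FZD9 had 8.4 to 15.1 in Caki2+Vector against 9.7 to 17.6 in Caki2+PBRM1, with an interval of -0.60 to 0.74, and FZD10 had 0 reads in every library.

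Per kilobase, the summed frizzled level was 539 ± 7.79 (SD, n = 3) in Caki2+Vector and 673 ± 17.0 in Caki2+PBRM1, with library values of 533 to 547 and 653 to 684. FZD6 held 50.6%, 44.8% and 46.5% of that sum in Caki2+Vector and 41.4%, 40.1% and 40.4% in Caki2+PBRM1. FZD7 held 23.8%, 26.6% and 24.3% against 34.2%, 34.3% and 34.8%. FZD5 was the third by level in Caki2+Vector and the fourth in Caki2+PBRM1, with 9.9%, 10.1% and 10.5% against 6.3%, 6.6% and 6.9%, and FZD8 (36.9 ± 4.1 and 51.5 ± 0.733 per kilobase) took its place. FZD4 and FZD1 lay within each other's spread in Caki2+Vector, at 13.3 ± 2.24 and 12.7 ± 1.42 per kilobase, and stood apart in Caki2+PBRM1, at 8.88 ± 1.32 and 21.1 ± 0.807. Shares of a fixed sum move against each other, so a lower share of FZD6 is no fall of its count.

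**Figure D4:**
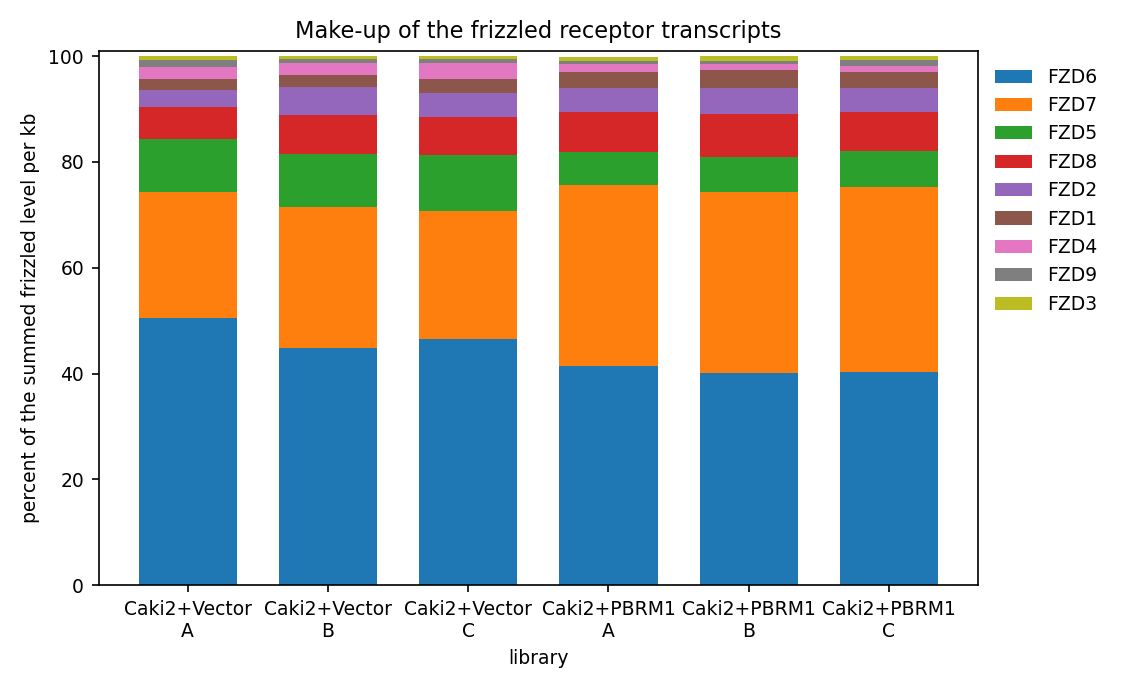
Share of each frizzled receptor in the summed frizzled level per kilobase, in percent, as 1 stacked bar for each of the 6 libraries. The FZD7 segment is 23.8% to 26.6% in Caki2+Vector against 34.2% to 34.8% in Caki2+PBRM1, and the FZD6 segment 44.8% to 50.6% and 40.1% to 41.4%.

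Of the co-receptors, LRP6 (chr12:12268959-12419978), the main partner of frizzled in canonical signaling, had 1862.1, 1780.9 and 1835.0 normalized counts in Caki2+Vector and 1700.6, 1678.1 and 1666.0 in Caki2+PBRM1. The groups did not overlap and the fall was small (log2 fold change -0.12 ± 0.04, limma adjusted p = 0.0317, n = 3). The call was lost without Vector C or any 1 of the Caki2+PBRM1 libraries (largest adjusted p = 0.123). LRP5, its paralog, had 269.8, 332.6 and 315.2 against 305.5, 287.1 and 319.8 and did not pass (95% interval -0.17 to 0.16). A partial copy of LRP5, LRP5L, lies elsewhere in the genome, so the assignment of some LRP5 reads is uncertain.

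DKK1 (chr10:54074041-54077802), a secreted inhibitor that holds LRP5 and LRP6 away from Wnt ligands, had the largest change of any member. It had 48.3, 41.6 and 43.1 normalized counts in Caki2+Vector and 187.4, 199.1 and 214.9 in Caki2+PBRM1, and no library lay between the groups. DKK1 rose 4.52-fold, from 44.3 ± 3.5 to 200.4 ± 13.8 (SD, n = 3), with a log2 fold change of 2.15 ± 0.12 (SE, 95% interval 1.90 to 2.40, limma adjusted p = 2.74e-14). By fold change it was number 27 of the 2152 genes that rose. A noncoding gene on the other strand, PRKG1-AS1, shares 12.6% of the exon bases of DKK1 and had at most 3 reads in a library. DKK3, a divergent family member that does not act on LRP6 as DKK1 does, had 303.9, 290.0 and 323.6 against 345.5, 328.0 and 312.2, with overlap (0.10, 95% interval -0.05 to 0.26, adjusted p = 0.32, n = 3).

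SFRP4 (chr7:37945534-38065297), a secreted protein with a frizzled-like domain that binds Wnt ligands, had 63.4, 72.7 and 56.3 normalized counts in Caki2+Vector and 37.9, 37.3 and 42.8 in Caki2+PBRM1. The groups did not overlap, and SFRP4 fell to 0.613 of its level (log2 fold change -0.69 ± 0.16, limma adjusted p = 0.00189, n = 3). DKK1 and SFRP4, both antagonists, thus moved in opposite directions. DKK4 and SFRP1 had 0 reads in every library, DKK2 and SFRP2 had at most 1, and SFRP5 had at most 2. Per kilobase, DKK3 made up 70.1% to 74.4% of the summed antagonist level in Caki2+Vector against 47.9% to 53.9% in Caki2+PBRM1, where DKK1 made up 13.9% to 15.7% and then 40.9% to 46.1%. The sum was 169 ± 4.51 (SD, n = 3) in Caki2+Vector and 255 ± 2.28 in Caki2+PBRM1. In Caki2+Vector the SD ranges of DKK1 (24.6 ± 1.94) and SFRP4 (22.4 ± 2.87) overlapped, and in Caki2+PBRM1 the levels stood at 111 ± 7.64 and 13.7 ± 1.05.

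The surface enzymes and receptors that set the amount of frizzled did not pass the test. ZNRF3, a ubiquitin ligase that removes frizzled and LRP6, had 295.4, 345.8 and 296.0 normalized counts in Caki2+Vector and 359.6, 343.1 and 334.0 in Caki2+PBRM1 (0.15, 95% interval -0.01 to 0.30, limma adjusted p = 0.147, n = 3). Without Vector B, its highest control, the difference was 0.22 (adjusted p = 0.0384). RNF43, its paralog, had 94, 97 and 63 reads against 62, 115 and 106 (interval -0.30 to 0.29), and 71.0% of its exon bases also belong to a readthrough gene of the GENCODE annotation that the files do not count. LGR4, an R-spondin receptor, was abundant, with 2637.5, 2414.8 and 2576.9 against 2659.2, 2647.8 and 2740.3. The groups did not overlap and the difference was 0.08 (interval -0.01 to 0.16, adjusted p = 0.157), and 0.10 (adjusted p = 0.0155) without Vector A. LGR5, a stem cell marker and R-spondin receptor, had 2, 0 and 2 reads in Caki2+Vector and 1, 5 and 5 in Caki2+PBRM1.

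Inside the cell, AXIN1, the scaffold of the destruction complex, had 671.2, 772.8 and 812.6 normalized counts in Caki2+Vector and 738.7, 766.2 and 752.8 in Caki2+PBRM1, with a difference of 0.01 (95% interval -0.12 to 0.13, limma adjusted p = 0.962, n = 3). AXIN2, the scaffold paralog that canonical signaling itself induces, had 5, 5 and 5 reads in Caki2+Vector and 5, 4 and 9 in Caki2+PBRM1. It was under the filter, and in the limma fit without the filter its adjusted p was 0.97. Of the TCF/LEF factors, TCF7L2 had the highest count, with 201.6, 185.2 and 190.6 against 198.2, 195.5 and 227.4 normalized counts (0.10, interval -0.08 to 0.29, adjusted p = 0.427). TCF7 had 50.2, 52.0 and 50.3 against 66.1, 50.7 and 62.9 (0.22, interval -0.10 to 0.55), and TCF7L1, mainly a repressor, had 19.9, 19.8 and 34.8 against 28.2, 27.6 and 31.9 (0.27, interval -0.20 to 0.75). LEF1 had at most 2 reads in a library. The groups overlapped for all 3 factors tested, and the intervals include changes of TCF7 and TCF7L1 as large as some of those called among the receptors.

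The other genes of the pathway were taken as 5 lists by role, 87 genes in the files of which 68 were tested. Of these 68, 21 rose and 12 fell (48.5%, against 29.2% of all genes tested), with a median log2 fold change of 0.054 (-0.004 over all genes tested). Among the extracellular modulators and secretion genes, 6 of 17 were tested, 2 rose and 3 fell (83.3% of 6, against 29.2%). PORCN, the enzyme that acylates Wnt ligands, fell from 1039.5, 1129.9 and 1150.6 normalized counts to 735.5, 755.5 and 779.7 (-0.55 ± 0.05, limma adjusted p = 1.67e-09, n = 3). WLS, the carrier of acylated ligands, was rare and rose from 2.8, 3.8 and 4.8 to 20.6, 23.1 and 12.6 (2.02 ± 0.36, adjusted p = 7.67e-05, n = 3), and it passed the filter only through Caki2+PBRM1.

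KREMEN1 and KREMEN2, receptors that bind Dickkopf proteins and take LRP6 off the surface, both fell. KREMEN1 had 218.7, 233.4 and 224.1 normalized counts in Caki2+Vector and 143.0, 133.3 and 113.3 in Caki2+PBRM1 (-0.80 ± 0.10, limma adjusted p = 2.32e-07, n = 3). KREMEN2 had 71.9, 73.7 and 91.1 against 37.9, 35.6 and 31.9 (-1.14 ± 0.16, adjusted p = 2.48e-06, n = 3). KREMEN1 and KREMEN2 thus fell in the libraries in which DKK1 rose. Of the other receptors that Dickkopf proteins act on, LRP5 did not pass, and the small fall of LRP6 (-0.12) lost its call without some libraries. Whether these changes are linked was not tested. RSPO3, an R-spondin that binds LGR4, had 70.1, 76.5 and 68.3 against 114.8, 93.3 and 114.1 (0.57 ± 0.13, adjusted p = 0.00108, n = 3), with no overlap.

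Of the dishevelled and destruction complex list, 22 of 25 were tested, 3 rose and 4 fell, a share (31.8%) close to the 29.2% of all genes tested. CTNNB1, which encodes beta-catenin, had 3103.2, 3159.3 and 3203.7 normalized counts in Caki2+Vector and 2898.6, 2780.3 and 2852.8 in Caki2+PBRM1 (-0.15 ± 0.04, limma adjusted p = 0.00287, n = 3). The others that fell code for proteins that promote its destruction. They were APC (-0.26), AMER1 (-0.38) and BTRC (-0.31), of which AMER1 lost its call without Vector C and BTRC without PBRM1 B. DVL3 (0.17), a dishevelled protein that passes the signal on from frizzled, GSK3B (0.15), a kinase of the complex, and TNKS2 (0.19), a tankyrase that destabilizes AXIN, rose, and the calls of all 3 were lost in at least 1 fit with a library left out. The libraries were PBRM1 B and C for DVL3, Vector C and each Caki2+PBRM1 library for GSK3B, and Vector B for TNKS2. DESeq2 on the recovered reads did not call AMER1 (adjusted p = 0.0577), GSK3B (0.149) or TNKS2 (0.0551).

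All 15 nuclear cofactors of beta-catenin were tested, 6 rose and 2 fell (53.3%, against 29.2%). TLE family members, corepressors that occupy TCF/LEF factors without beta-catenin, were 4 of the 6 that rose. TLE4 (0.38), TLE3 (0.34), TLE1 (0.19) and TLE2 (1.16, through the filter only in Caki2+PBRM1) were these, and the calls of TLE1 and TLE2 were lost without Vector A. The TLE1 call was lost without any 1 of the Caki2+PBRM1 libraries as well. TLE5, a shorter member of the family that was listed as AES, had 682.6, 686.8 and 710.7 normalized counts against 697.6, 667.5 and 678.1 and did not pass (-0.03, 95% interval -0.14 to 0.08, limma adjusted p = 0.764, n = 3). PYGO1, a coactivator, rose from 43.5, 50.1 and 41.9 normalized counts to 82.3, 74.7 and 70.5 (0.74 ± 0.15, limma adjusted p = 4.25e-04, n = 3), and the acetyltransferase gene EP300 rose by 0.17. BCL9 (-0.36), which links beta-catenin to PYGO proteins, and CTNNBIP1 (-0.31), an inhibitor of the beta-catenin and TCF contact, fell, the latter with its call lost without Vector B, Vector C or PBRM1 A.

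Of the non-canonical receptors and planar cell polarity genes, 13 of 15 were tested, 5 rose and 2 fell (53.8%, against 29.2%). PTK7, a co-receptor in planar cell polarity, rose from 456.3, 484.7 and 456.6 normalized counts to 885.0, 937.7 and 890.5 (1.94-fold, 0.96 ± 0.06, limma adjusted p = 4.63e-14, n = 3). CELSR3, a polarity cadherin, fell from 178.9, 192.7 and 200.2 to 89.9, 85.3 and 94.0 (-1.08 ± 0.11, adjusted p = 2.66e-09, n = 3), whereas its paralog CELSR2 rose by 0.48 ± 0.06 (adjusted p = 2.22e-07). PRICKLE1, a cytoplasmic polarity protein, rose by 0.35, and the WNT5A receptor genes RYK (0.15) and ROR1 (-0.26) and the polarity gene VANGL1 (0.15) passed by a small margin. The last 3 did not pass without Vector B, Vector C or any 1 of the Caki2+PBRM1 libraries.

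Of the widely used targets of beta-catenin and TCF, 12 of 18 were tested, 5 rose and 1 fell (50.0%, against 29.2%). SNAI2, a transcription factor of epithelial to mesenchymal transition, rose from 91.8, 92.6 and 107.9 normalized counts to 197.1, 219.5 and 183.8 (1.03 ± 0.11, limma adjusted p = 9.03e-09, n = 3). EPHB3 (1.02, through the filter only in Caki2+PBRM1), TNFRSF19 (0.84, with overlap between groups), JUN (0.47) and MMP7 (0.44) also rose, and the calls of EPHB3 and TNFRSF19 were lost without Vector B, that of TNFRSF19 also without PBRM1 A. MYC fell, from 1106.7, 1168.7 and 1220.1 to 916.4, 959.9 and 957.6 (-0.30 ± 0.05, adjusted p = 2.30e-05, n = 3). CCND1 (0.08), CD44 (0.06), PPARD (0.14), FOSL1 (-0.01), BIRC5 (-0.04) and EPHB2 (-0.07) were tested and did not pass. Some targets on this list were near the floor, since NKD1, NOTUM and SP5 had at most 3 reads in a library. ASCL2 had 0 reads throughout, APCDD1 had at most 6 and BMP4 at most 9. Many genes of this list respond to other pathways as well, so the list's counts are no measure of beta-catenin activity, which was not assayed.

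**Figure D5:**
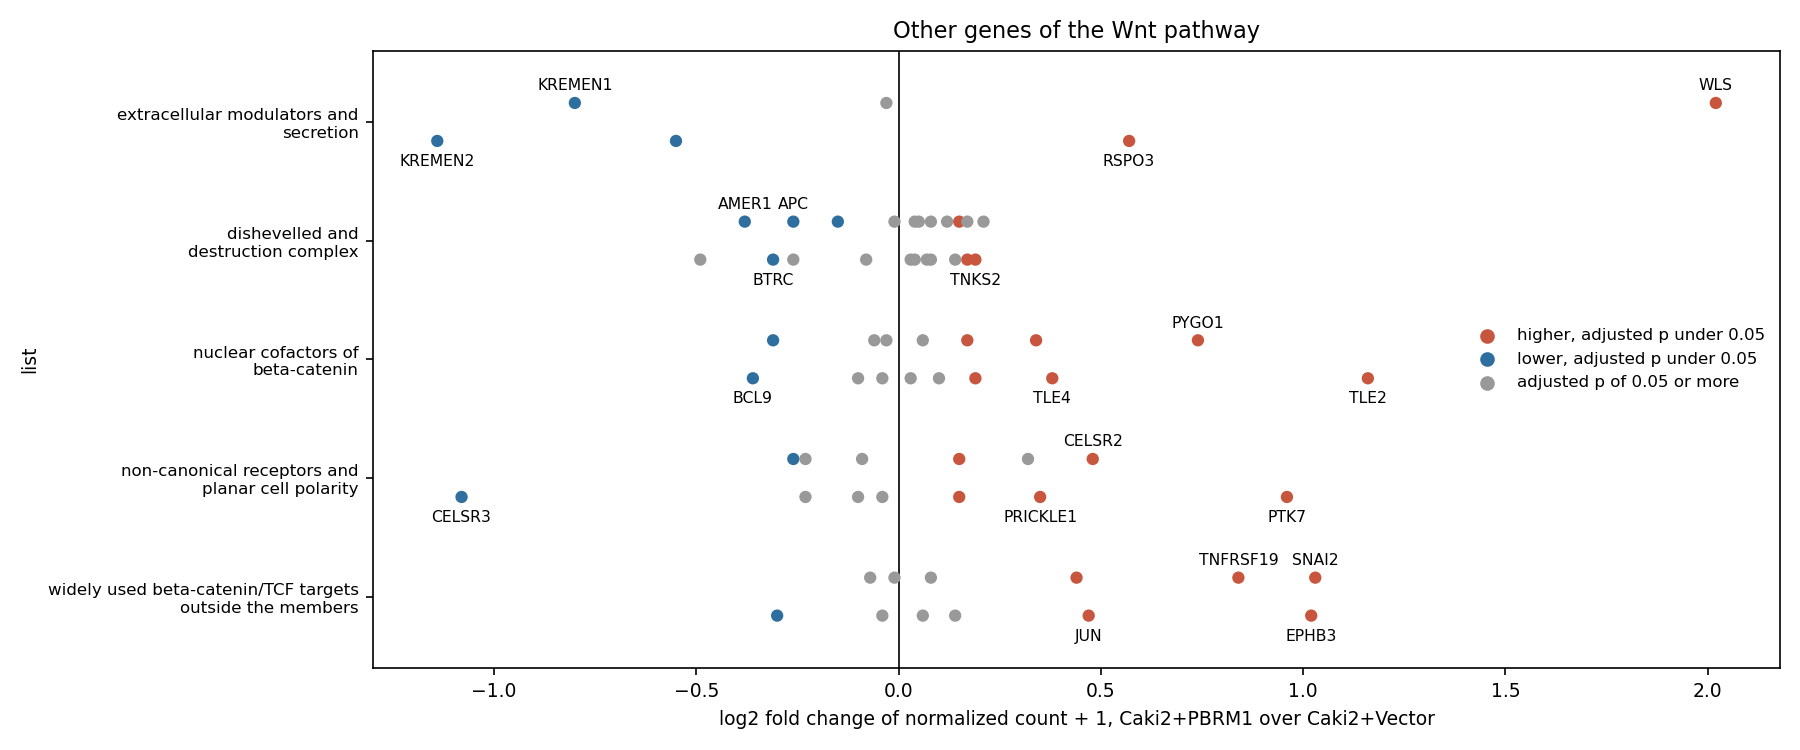
Log2 fold change, Caki2+PBRM1 over Caki2+Vector, of the 68 tested genes of the 5 other pathway lists, 1 point per gene and list, coloured by the limma call. In the top row WLS lies at 2.02 and KREMEN2 at -1.14, and the points of the destruction complex row lie mostly near 0.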

How the data were processed

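RNA-Seq of Caki2+Vector and Caki2+PBRM1 cells was analysed, with 3 samples of each. Groups and replicate letters were taken from the sample labels. According to the methods and the submitters' processing notes, the authors trimmed the reads, removed poor and rRNA reads, aligned the rest to hg19 with STAR, counted them per gene with HTSeq and normalized the counts with DESeq2. Versions and the strand setting of the counting are not given in the sources used here. The signal values the authors deposited are these normalized counts, not divided by gene length. Within a file 100.0% of values were whole multiples of the step of 1 read (tolerance 0.02 reads), so reads were recovered and gave the depth, 7312955 to 10835355 per sample.

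Genes with 10 or more normalized counts in 3 or more samples (13303) were tested as log2(normalized count + 1), a scale that understates the change of low genes, with limma 3.58.1 (R 4.3.3), using its robust empirical Bayes with a trend, and called at a Benjamini-Hochberg adjusted p under 0.05. Values are given with the SD of 3 samples and fold changes with their SE. Alternatives were pseudocounts of 0.5 and 4, no filter, 10 in every sample, TMM scaling, edgeR 4.0.16 and DESeq2 1.42.0 on the recovered reads (edgeR called 4030 genes, DESeq2 2553), a replicate block, and leaving out each replicate. Limits of a count of 0 are 3 reads and cover counting error only.

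The symbol rule for the members uses no measured value, but the choice of this family and of the lists was made with earlier results of these data known. Every member may be named. From each other list those past the threshold with the largest change are named, up to 4 per list. CTNNB1, PORCN and others outside that limit are named because each belongs to a small count or was singled out after its values were seen. Positions, exon overlaps and transcript lengths come from GENCODE v44 lifted to GRCh37, promoters from RefSeq. Scripts ran in Python 3.11.15 (numpy 2.4.6, pandas 2.3.3, matplotlib 3.10.9). Tumor, qRT-PCR, protein and lipid data were not analysed here.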

Additional observations from a re-analysis of the deposited data

How the results depend on the processing

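Of the 15 members that passed, 9 (DKK1, FZD1, FZD3, FZD4, FZD5, FZD7, FZD8, SFRP4 and WNT5A) passed in all 14 alternatives, 6 (FZD2, LRP6, WNT5B, WNT7B, WNT10B and WNT11) lost the call in at least 1, and 0 changed sign. Of the 33 called genes of the other lists, 20 kept the call in every alternative that fitted them, 13 lost it in at least 1 and 0 changed sign. Among the 20, WLS was fitted in only 10 of the 14 alternatives. DESeq2 on the recovered reads called 2553 genes in place of 3886, with 6 members higher and 3 lower. It called 4 genes of the destruction complex list, 5 of the nuclear cofactors and 4 of the non-canonical list. List genes called by limma but not by DESeq2 were AMER1, GSK3B, TNKS2, CTNNBIP1, TLE1, TLE2, ROR1, RYK, VANGL1 and EPHB3. Without the filter the non-canonical list had 4 calls. The cause of these differences was not tested. Leaving out 1 library gave 2798 to 4154 calls over all genes, 6 to 11 members higher and 3 to 5 lower, and 23 to 36 calls over the other lists (extracellular 4 to 5, destruction complex 4 to 8, nuclear 5 to 7, non-canonical 4 to 10, targets 4 to 7), while PBRM1 stayed at 3.72 to 3.80. Members that did not pass and changed sign were RNF43 (0.02 in edgeR, 0.01 in DESeq2), and, with 1 library left out, AXIN1 (-0.07 to 0.06), FZD9 (-0.13 to 0.20), LRP5 (-0.09 to 0.06), RNF43 (-0.14 to 0.16), WNT10A (-0.41 to 0.15), WNT6 (-0.18 to 0.10) and WNT9A (-0.08 to 0.32). FZD6, LGR4 and ZNRF3 passed in 1 alternative each. WNT5B, FZD9, WLS, TLE2 and EPHB3 had no value in 4 alternatives each, and WNT11 in 1, where the filter removed them. Replicate letters do not mark shared batches in the labels, and deviations of same-letter samples correlated at -0.008 to 0.014 over 3 pairs. With the letter as a replicate block 4107 genes, 10 members higher, 5 lower and 34 genes of the lists were called. Genes under the filter were compared only in the fit without it, where AXIN2 (adjusted p = 0.97), LEF1 (0.547) and LGR5 (0.249) did not pass and DACT1 (0.0106) did.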
